A study of Mus musculus with 6 samples.

Results

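The genes described here are 7 transcription factors of the epithelial-mesenchymal transition (EMT): the zinc-finger homeobox factors Zeb1 and Zeb2, the Snail-family factors Snai1 and Snai2, the basic helix-loop-helix factors Twist1 and Twist2, and the paired-related homeobox factor Prrx1. They were chosen by symbol, and all 7 were found among the 31053 genes of the single-cell matrices. Their rows were picked by symbol alone, but the 7 factors were set with earlier results of these data known.

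EMT factors are DNA-binding proteins that switch cells from an epithelial to a mesenchymal program. Snail and Zeb factors are known to repress epithelial genes such as the cadherin Cdh1 by binding E2-boxes in their control regions, whereas Twist and Prrx1 factors are active in the mesenchyme of the embryo. In the melanocyte lineage Zeb2 and Snai2 accompany differentiated cells, and a shift toward Zeb1 and Twist1 has been described in dedifferentiated melanoma. Zeb1 and Zeb2 also act in blood cells, Zeb1 in early T cells and Zeb2 in macrophages, plasmacytoid dendritic cells and mature NK cells.

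Droplet-based 3′ single-cell RNA sequencing was carried out on material labeled YUMM2.1, a mouse melanoma cell line, to compare states of Bmal1, the circadian clock factor encoded by Arntl. One library carried an Empty vector and the other Bmal1 WT, the wild-type protein expressed on top of the endogenous gene. In both lines the vector was introduced by lentivirus and the cells were sorted for GFP, and in the study's tumor experiments such lines were injected under the skin of C57BL/6 mice. The labels did not say whether the sequenced cells came from culture or from tumors, and gave no age, sex or animal for a replicate, but most cells were immune cells. Each library pooled 3 hashtagged replicates in 1 droplet channel, h1, h7 and h8 for Empty vector and h3, h5 and h9 for Bmal1 WT, so the channel and the group cannot be told apart. Nothing stated that the hashtags were separate animals or cultures, and p-values below measure only the spread between them, which may be technical.

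The Empty vector library held 34232927 gene UMIs (unique molecular identifiers, each 1 captured transcript) in 4147 barcodes and the Bmal1 WT library 39561569 in 2785. The cell filter kept 3978 and 2386 cells, of which 3222 and 1618 carried exactly 1 hashtag, and 5 barcodes occurred in both libraries. Cells were clustered without the 7 factors and named from marker genes, and a cell counted in a class only if its own UMIs also held markers of that class. Melanoma-like cells (90 Empty vector, 278 Bmal1 WT) expressed 11 of 14 melanoma markers, with Mlana, Tyrp1 and Ednrb at 0. Their markers summed to 2234 CPM (UMIs scaled to 1000000 gene UMIs of the cells pooled) in Empty vector versus 1645 CPM in Bmal1 WT. In the same cells fibroblast markers summed to 534 and 576 CPM and pan-immune markers to 48.4 and 38.1 CPM, and in fibroblast-like cells (133 and 199) fibroblast markers summed to 25804 and 22159 CPM. Arntl was at 61.0 CPM in the melanoma-like cells of both libraries. A 3′ tag may not read a transgene that lacks the native 3′ end, so this level checks nothing about the labels.

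The 250 bases upstream of the annotated start are shown for Snai1, the only window with a motif of those searched, and for Twist1, a bHLH factor of the melanoma-like cells, beside it (RefSeq, GRCm38.p6; the Snai1 window is chr2:167537945-167538194 and the Twist1 window chr12:33957421-33957670, both on the plus strand). Capitals mark the E2-box CACCTG.
Snai1: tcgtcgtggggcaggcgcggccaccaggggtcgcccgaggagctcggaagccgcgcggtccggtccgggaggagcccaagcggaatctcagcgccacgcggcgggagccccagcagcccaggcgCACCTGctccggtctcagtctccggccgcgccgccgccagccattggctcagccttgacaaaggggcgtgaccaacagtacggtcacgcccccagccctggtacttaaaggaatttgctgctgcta
Twist1: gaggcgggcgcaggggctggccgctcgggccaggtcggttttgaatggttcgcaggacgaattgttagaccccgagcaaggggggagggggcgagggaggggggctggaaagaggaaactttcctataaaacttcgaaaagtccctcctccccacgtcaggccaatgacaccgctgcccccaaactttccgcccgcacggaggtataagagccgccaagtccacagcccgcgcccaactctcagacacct
Windows from 250 bases before to 50 bases after the start were found for 5 of the 7 factors, 8 windows in all. The canonical E-box CACGTG, the palindrome that Bmal1 with its partner Clock is known to bind, was in 0 of the 8, against 7.15% of 32851 windows of all genes. An E2-box, read as CAGGTG or CACCTG for both strands, was in 1 of the 8, that of Snai1, 126 bases before its start, against 20.2% of all windows. A match is only a description of the letters, and their absence concerns these windows alone.

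The 7 factors fell into 3 patterns across cell classes, given here as levels pooled over both libraries with exact Poisson 95% intervals, which cover counting error only. Snai2, Twist1, Twist2 and Prrx1 were detected in the fibroblast-like and melanoma-like cells and at or near 0 in immune cells. Snai1 was found mainly in fibroblast-like cells. Zeb1 and Zeb2 were present in fibroblast-like, melanoma-like and immune classes alike, but among immune classes of at least 50 cells Zeb1 was highest in T-cell-like cells, where Zeb2 was lowest, and Zeb2 in macrophage- or monocyte-like cells, where Zeb1 was lowest. These class differences are descriptions, without a test, and the endothelial-like (13 cells) and B-cell-like (11 cells) classes were too small to be placed in the orders that follow.

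**Figure D1:**
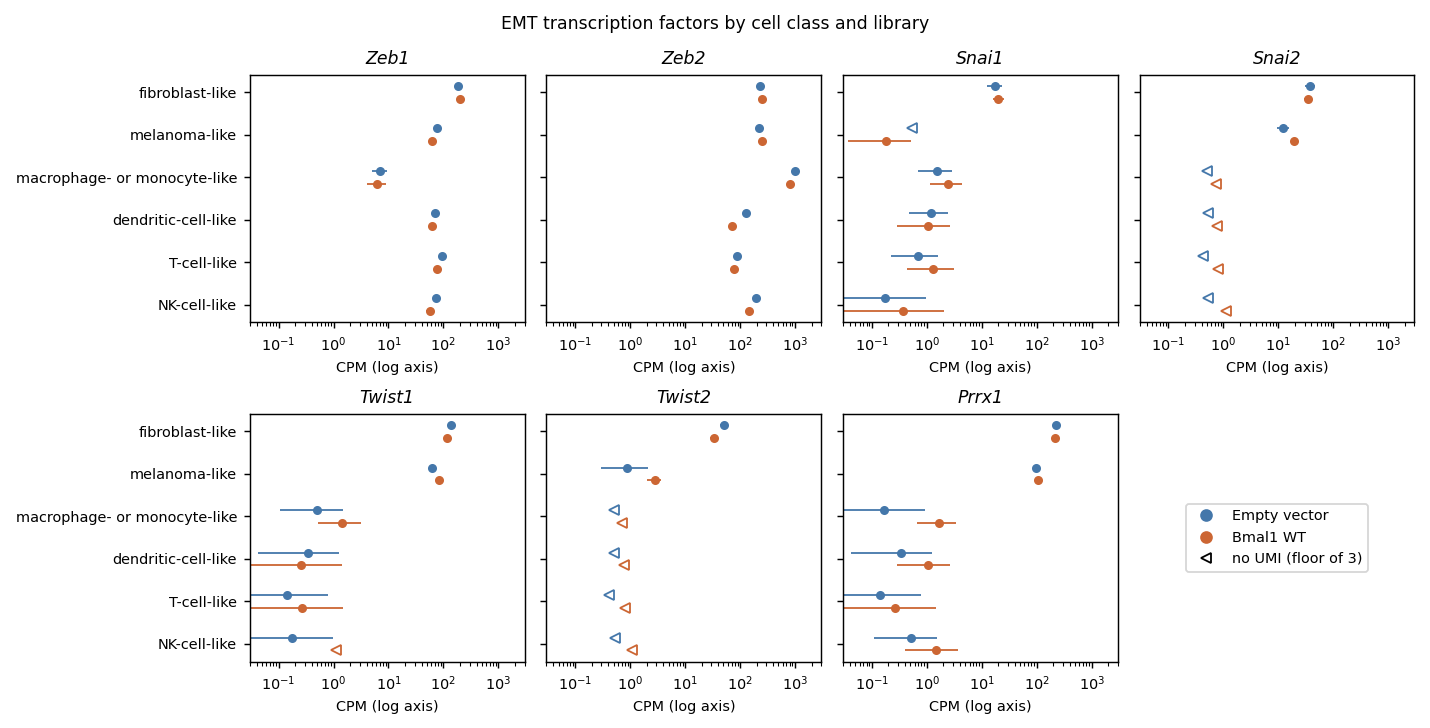
Level of each EMT factor (CPM, log axis) in 6 cell classes, with points for the Empty vector and Bmal1 WT libraries, exact Poisson 95% intervals as bars, and open triangles at the level of 3 UMIs where no UMI was found. Twist1 and Prrx1 lie between 62.3 and 223 CPM in the upper 2 classes and below 2 CPM in the immune classes, while Zeb2 is highest in macrophage- or monocyte-like cells, at 1004 and 817 CPM.

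Zeb1 (chr18:5591860-5775467, plus strand), a repressor of epithelial genes that also acts in lymphocytes, was highest in fibroblast-like cells at 194 CPM (183 to 206). Among classes of at least 50 cells, T-cell-like cells followed at 88.8 CPM (83.3 to 94.5). The classes next in order were NK-cell-like at 68.9 CPM, melanoma-like at 66.4 CPM (63.0 to 69.8) and dendritic-cell-like at 65.9 CPM. Mitochondria-poor melanoma-like barcodes (37 and 124), kept apart from the melanoma-like class, followed at 59.9 CPM (48.4 to 73.3). These classes had overlapping intervals and could not be ordered. Macrophage- or monocyte-like cells came last with 6.74 CPM (5.24 to 8.55), an interval apart from those of the other classes of this size. In the small classes Zeb1 rested on 10 UMIs or fewer, at 155 CPM (62.4 to 320) in endothelial-like, 72.6 CPM (34.8 to 134) in mast-cell- or basophil-like and 34.5 CPM (4.18 to 125) in B-cell-like cells.

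Zeb2 (chr2:44983632-45117395, minus strand), the paralog of Zeb1, had its maximum where Zeb1 was lowest, at 927 CPM (908 to 946) in macrophage- or monocyte-like cells. Mast-cell- or basophil-like cells, 23 in all, came next with 450 CPM (345 to 577). Melanoma-like cells at 241 CPM (234 to 247) and fibroblast-like cells at 240 CPM (228 to 252) were not separated. NK-cell-like cells held 180 CPM, mitochondria-poor melanoma-like barcodes 139 CPM (121 to 159), dendritic-cell-like cells 106 CPM and T-cell-like cells 84.5 CPM. Each had an interval apart from its neighbor's. B-cell-like cells, with 3 Zeb2 UMIs, and endothelial-like cells, with 1, could not be placed. The antisense gene Zeb2os overlaps Zeb2 on the opposite strand and had 637 UMIs in all against 20781 for Zeb2. Because use of strand was not stated, reads of these genes may be mixed.

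Of the Snail factors, Snai1 (chr2:167538195-167542814, plus strand), an early inducer of EMT, was the scarcest, with 175 UMIs in all cells. It stood at 19.1 CPM (15.8 to 22.9) in fibroblast-like cells and at 1.88 CPM (1.13 to 2.94) in macrophage- or monocyte-like cells. Among 368 melanoma-like cells only 3 Snai1 UMIs were found, a level of 0.134 CPM (0.0276 to 0.391). Snai2 (chr16:14705852-14709385, plus strand), which in melanocytes is part of the normal lineage program, was at 36.2 CPM (31.6 to 41.2) in fibroblast-like and 17.2 CPM (15.5 to 19.0) in melanoma-like cells. Not a single Snai2 UMI was found in the macrophage-, dendritic-, T- and NK-cell-like classes, and the upper limits of the pooled intervals ran from 0.336 to 0.435 CPM.

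Twist1 (chr12:33957671-33959829, plus strand), a mesodermal regulator, reached 126 CPM (117 to 135) in fibroblast-like and 78.3 CPM (74.7 to 82.1) in melanoma-like cells, and no more than 0.893 CPM in any immune class. Its paralog Twist2 (chr1:91801461-91848028, plus strand), known from the dermis, was at 40.1 CPM (35.2 to 45.4) in fibroblast-like cells but only 2.32 CPM (1.73 to 3.04) in melanoma-like cells. Twist1 and Twist2 thus differed in their fibroblast-to-melanoma ratio. Prrx1 (chr1:163245119-163313710, minus strand), a mesenchymal homeobox factor of the limb and skeleton, was at 217 CPM (206 to 229) in fibroblast-like and 104 CPM (99.4 to 108) in melanoma-like cells, and at most 0.825 CPM in immune classes. Gm26523, a gene on the same strand within its bounds, had 257 UMIs against 4134 for Prrx1, and reads shared by them may have been lost or misassigned.

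Melanoma-like cells were deeper (median 34292 UMIs per cell in Empty vector, 46506 in Bmal1 WT) than fibroblast-like cells (14332 and 18517) and macrophage- or monocyte-like cells (6998 and 9657). Cells were therefore thinned to 2000 UMIs each before shares of cells with a UMI were compared. After thinning, Twist1 was detected in 12.9% and 14.4% of melanoma-like cells in Empty vector and Bmal1 WT and in 27.6% and 19.2% of fibroblast-like cells. In the unthinned cells these shares were 74.4%, 75.5%, 60.2% and 62.3%, so the order of the classes turned with depth. Prrx1 was found in 17.6% and 16.6% of thinned melanoma-like and 35.3% and 25.8% of thinned fibroblast-like cells. In thinned macrophage- or monocyte-like cells, which served as background for the mesenchymal factors, the shares of Snai1, Snai2, Twist1, Twist2 and Prrx1 were between 0% and 1.16%. The thinned shares of Snai1 in fibroblast-like cells, 3.45% and 2.20%, were only slightly above that, and Snai1 was in 0 of 85 and 0 of 271 thinned melanoma-like cells, which, taken as 3 of the total, allows shares of cells with a UMI at this depth of up to 3.53% and 1.11%.

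Within the melanoma-like and fibroblast-like classes, Zeb1 and Zeb2 varied between the main clusters in opposite directions. The melanoma-like class consisted of cluster 15, with 7 of 14 melanoma markers raised, among them Sox10 and Erbb3, and cluster 19, with only Sox10, S100b and Cdh19 raised. Zeb2 was at 380 CPM (364 to 396) in cluster 15 and 190 CPM (183 to 196) in cluster 19. Zeb1 had the reverse order, 48.9 CPM (43.5 to 54.8) against 72.7 CPM (68.7 to 77.0). Zeb2 thus made up 88.6% of the Zeb1 and Zeb2 UMIs in cluster 15 and 72.3% in cluster 19. Twist2 was at 0.665 CPM in cluster 15 and 2.92 CPM in cluster 19, whereas Prrx1 hardly differed, at 104.5 and 103.3 CPM.

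The Zeb2 order was also read within replicates. In clusters 15 and 19, Zeb2 was at 317 and 193 CPM in h1, 240 and 204 CPM in h8, 381 and 188 CPM in h3, 276 and 205 CPM in h5, and 309 and 176 CPM in h9. The sixth replicate, h7, had only 1 and 2 such cells, with Zeb2 at 0 and 32.9 CPM. Cluster 15, with more melanoma markers, was thus higher in Zeb2 in each of the 4 replicates with at least 5 cells in both clusters and also in h9, which had only 2 cells in cluster 15 with 13 Zeb2 UMIs. The Zeb1 order was less even. In clusters 15 and 19 Zeb1 was at 56.6 and 84.8 CPM in h1, 40.5 and 73.4 CPM in h3 and 45.0 and 60.6 CPM in h5, but level in h8 (65.7 and 66.4 CPM) and turned in h9 (143 and 77.4 CPM, the former on 6 UMIs). The median depth was 25381 UMIs per cell in cluster 15 and 62466 in cluster 19, and the part of depth in this difference was not tested.

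Splitting the melanoma-like cells by a Sox10 UMI after thinning to 5000 UMIs gave the same order for Zeb2. Sox10 is the lineage factor of melanocytes and Schwann cells. With and without a Sox10 UMI, Zeb2 was at 242 and 177 CPM in Empty vector, and in Bmal1 WT at 315 and 213 CPM. Snai2 went the other way, with 10.9 and 14.1 CPM in Empty vector, where the intervals overlapped, and 12.5 and 22.3 CPM in Bmal1 WT, where they did not. Twist2 in Bmal1 WT was at 0.528 CPM with and 3.97 CPM without a Sox10 UMI, on 3 and 44 UMIs. The split used Sox10 alone, but Sox10 also helped to name the clusters, so the 2 views are not independent.

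Among fibroblast-like cells, cluster 11 (231 cells) and cluster 22 (85 cells, led by genes such as Lox, Adm and Ndufa4l2, which are known targets of hypoxia signaling) differed in the same sense. Zeb1 was at 231 CPM (217 to 246) in cluster 11 and 66.0 CPM (52.8 to 81.6) in cluster 22, while Zeb2 was at 216 CPM (202 to 230) and 352 CPM (320 to 385). Prrx1 was at 151 CPM (139 to 163) in cluster 11 and 475 CPM (439 to 514) in cluster 22. Twist1 had the order of Zeb1, 133 and 79.1 CPM, and so did Snai2, 41.0 and 15.4 CPM. Snai1 did not separate them, with 18.4 and 16.9 CPM and overlapping intervals.

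**Figure D2:**
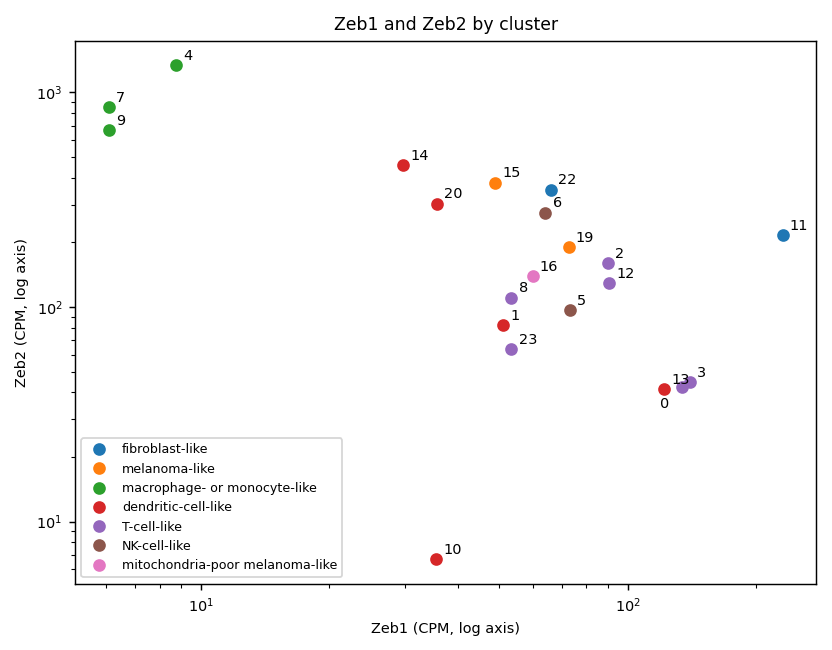
Zeb1 against Zeb2 (CPM, both axes log) in each named cluster of at least 50 cells, pooled over both libraries and colored by cell class, with cluster numbers beside the points. Macrophage- or monocyte-like clusters lie at upper left (Zeb2 666 to 1337 CPM), T-cell-like clusters 0 and 3 and dendritic-cell-like cluster 13 at lower right, and cluster 10 is low in Zeb2 (6.69 CPM).

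In lymphocytes the clusters highest in Zeb1 were lowest in Zeb2, while the other clusters showed no common order of both. The T-cell-like clusters 0 and 3, the latter led by Il17a, had Zeb1 at 134 and 140 CPM and Zeb2 at 42.6 and 44.5 CPM. Cluster 2, led by Gzmk and Cd8b1, had 89.8 CPM of Zeb1 and 160 CPM of Zeb2, and cluster 8, with Pdcd1 and Tox among its leading genes, 53.4 and 111 CPM. The Foxp3-bearing cluster 12 held 90.6 CPM of Zeb1 and 130 CPM of Zeb2. Cluster 23, led by Gzmc with cell-cycle genes such as Top2a and Mki67 among its top genes, was low in both at 53.4 and 63.7 CPM. In NK-cell-like cells Zeb2 was at 275 CPM in cluster 6, led by Gzma with Prf1 among its top genes, and 96.7 CPM in cluster 5, led by Gzmc. Zeb1 differed less between clusters 5 and 6, at 73.1 and 64.1 CPM.

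Dendritic-cell-like clusters covered the widest range of Zeb2 within a class as a ratio, though not in CPM, where the macrophage- or monocyte-like clusters were further apart. Cluster 10, led by Xcr1, the receptor of cross-presenting type 1 dendritic cells, had 6.69 CPM of Zeb2, and cluster 13, with Ccr7 and Fscn1 of migratory dendritic cells, 41.5 CPM. Cluster 1 stood at 82.2 CPM, cluster 20, led by Cd209a, at 303 CPM and cluster 14, led by Siglech of plasmacytoid dendritic cells, at 457 CPM. Zeb1 was highest in cluster 13 at 122 CPM and between 29.8 and 51.1 CPM in the other dendritic-cell-like clusters. Zeb2 therefore made up 15.9% of Zeb UMIs in cluster 10 and 93.9% in cluster 14. The level in cluster 10 was the lowest for Zeb2 in any named cluster of at least 50 cells.

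The comparison of Empty vector with Bmal1 WT asked whether Bmal1 status went with a change of these factors. In melanoma-like cells, UMIs were summed per hashtag (30, 3 and 21 cells for h1, h7 and h8, and 25, 72 and 24 for h3, h5 and h9) and tested with edgeR. Of the 7 factors, 5 had the 100 UMIs required (Snai1 with 1 and Twist2 with 20 did not), and 0 of these passed an adjusted p of 0.05, nor did any pass at an unadjusted p under 0.05. Of all 8787 genes tested 0% were called (0 genes, 339 at an unadjusted p under 0.05, 5 genes with DESeq2). DESeq2 called 0 of the 5 factors. Twist2, not tested, was at 0.890 CPM on 5 UMIs in Empty vector versus 2.80 CPM on 47 UMIs in Bmal1 WT over all melanoma-like cells. That was a log2 ratio of 1.65 (0.33 to 3.34, counting error only). Its replicates, at 0, 0 and 1.49 CPM and 0.679, 3.08 and 0 CPM, overlapped.

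Twist1 had the largest difference toward Bmal1 WT among the factors tested. It was at 55.7, 0 and 70.7 CPM in h1, h7 and h8 and at 78.1, 94.1 and 68.9 CPM in h3, h5 and h9. The groups overlapped, since h9 lay below h8. The log2 fold change of Bmal1 WT over Empty vector was 0.49 (SE 0.36, 95% interval -0.33 to 1.31, edgeR adjusted p = 0.9999).

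Snai2 had the opposite sign, with 13.7, 32.4 and 9.47 CPM in Empty vector versus 3.40, 13.7 and 5.39 CPM in Bmal1 WT (log2 fold change -0.64, SE 0.60, interval -1.98 to 0.69, edgeR adjusted p = 0.9999). The high Empty vector value came from the 3 cells of h7, and the groups overlapped. Over all melanoma-like cells, hashtagged or not, the order was turned, with 12.1 CPM in Empty vector versus 18.9 CPM in Bmal1 WT. That excess came with the cells without a hashtag, where Snai2 was at 13.8 and 27.2 CPM, whereas cells with 1 hashtag held 11.9 and 10.2 CPM. The direction for Snai2 thus turned on whether cells without a hashtag were counted.

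Zeb1 was at 72.9, 0 and 66.3 CPM in Empty vector versus 70.7, 56.1 and 79.0 CPM in Bmal1 WT (log2 fold change 0.12, SE 0.37, interval -0.71 to 0.95). Over all melanoma-like cells, hashtagged or not, Zeb1 went the other way, with 76.5 CPM in Empty vector versus 63.0 CPM in Bmal1 WT (log2 ratio -0.28, -0.44 to -0.12, counting error only), and cells without a hashtag had a log2 ratio of -0.66. For Zeb2 the values were 245, 32.4 and 213 CPM against 204, 225 and 180 CPM (log2 fold change 0.08, SE 0.38, interval -0.78 to 0.94). Prrx1 was at 89.6, 243 and 81.2 CPM against 104, 104 and 56.9 CPM (log2 fold change -0.27, SE 0.40, interval -1.17 to 0.63, edgeR adjusted p = 0.9999 for all 3 factors). In each of the 3 the groups overlapped and h7 was the extreme value. Without h7 the fold changes were -0.029 for Zeb1, -0.17 for Zeb2 and 0.055 for Prrx1, each of the opposite sign. Cluster 15, richer in Zeb2, made up 53.3%, 33.3% and 23.8% of the melanoma-like cells in h1, h7 and h8 and 24.0%, 34.7% and 8.33% in h3, h5 and h9, without keeping the groups apart. At the Empty vector mix of clusters 15 and 19 the pooled log2 ratio was 0.28 for Zeb2 and -0.32 for Zeb1, against 0.20 and -0.28 unweighted. Here and below, this mix is by shares of the UMIs of the class, not of its cells.

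**Figure D3:**
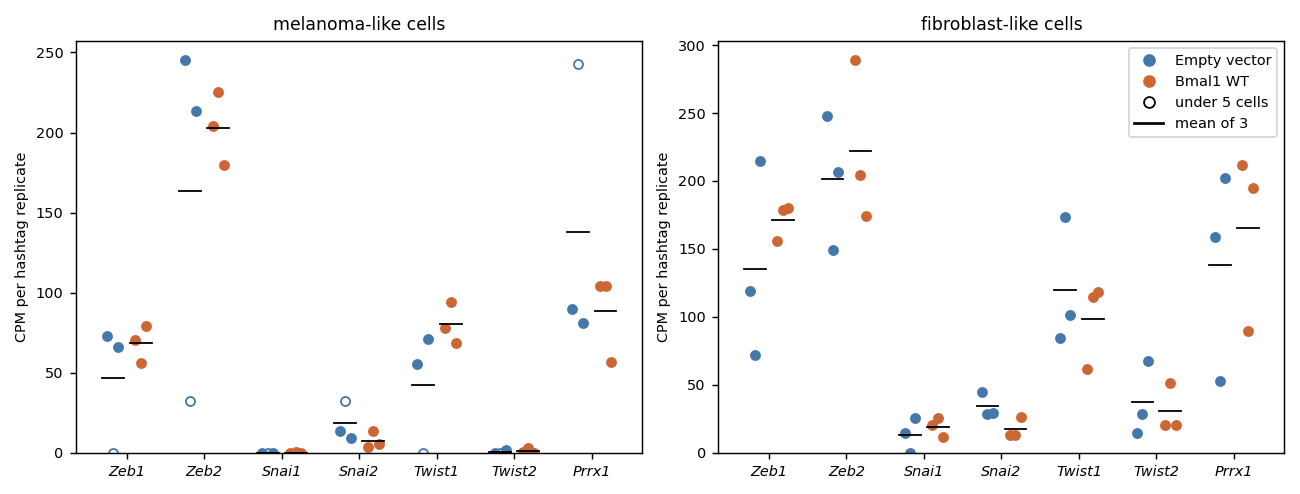
Level of each EMT factor (CPM) per hashtag replicate in melanoma-like (left) and fibroblast-like cells (right), with points for replicates, open where fewer than 5 cells entered, and bars for the mean of 3. The open point of h7 lies at 0 for Zeb1 and Twist1 and at 243 CPM for Prrx1 in melanoma-like cells. The groups overlap for every factor but Snai2 in fibroblast-like cells, which rested on 38 UMIs.

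After thinning to 2000 UMIs, 0 of the factors passed the two-sided exact permutation test on the share of melanoma-like cells with a UMI, for which the smallest p of 3 against 3 replicates is 0.10. Zeb1 reached that p, with 6.62% ± 5.75 (SD, n = 3) in Empty vector versus 17.1% ± 6.85 (n = 3) in Bmal1 WT (exact permutation p = 0.10, adjusted p = 0.88 over the factors and both classes). Over all thinned cells, hashtagged or not, the order was the reverse, 15.3% and 11.1%, and at 5000 UMIs per cell the difference between the group means was 2.20 percentage points (n = 3 each, exact permutation p = 0.90). For Twist1 the thinned shares were 8.21% ± 7.38 and 13.4% ± 1.60 (n = 3 each, exact permutation p = 0.30), and for Zeb2 27.9% ± 27.6 and 31.5% ± 5.78 (n = 3 each, exact permutation p = 0.80).

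In fibroblast-like cells, which the labels do not mention, 12, 8 and 9 cells entered for Empty vector and 20, 7 and 13 for Bmal1 WT. Here 4 of the 7 factors had enough UMIs, and 0 were called, with 0 at an unadjusted p under 0.05 and 0 with DESeq2. Of all 2742 genes tested 0% were called by edgeR (183 at an unadjusted p under 0.05, 9 genes with DESeq2). Zeb1 was at 119, 72.2 and 215 CPM in h1, h7 and h8 and 156, 179 and 180 CPM in h3, h5 and h9, with a log2 fold change of 0.33 (SE 0.39, interval -0.55 to 1.21, edgeR adjusted p = 0.924). Prrx1 was at 159, 53.0 and 202 CPM against 212, 89.3 and 195 CPM (log2 fold change 0.29, SE 0.49, interval -0.82 to 1.40, edgeR adjusted p = 0.954). The groups overlapped for both factors.

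Zeb2 in fibroblast-like cells was at 248, 149 and 207 CPM in Empty vector versus 289, 204 and 174 CPM in Bmal1 WT (log2 fold change 0.15, SE 0.30, interval -0.54 to 0.84). Twist1 was at 84.3, 173 and 101 CPM against 61.3, 115 and 118 CPM (log2 fold change -0.31, SE 0.38, interval -1.18 to 0.56). Both had overlapping groups. Without h7 the log2 fold changes were -0.020 for Zeb2, 0.049 for Twist1 and -0.087 for Prrx1, each with the sign turned. The share of cluster 22 ran from 0% of the cells in h7 to 75.0% in h3, and its part in the replicate levels was not tested. Zeb1, poorer in cluster 22, was lowest in h7, where 2 of the 8 cells belonged to cluster 25, another fibroblast-like cluster. Those 2 cells had Zeb1 at 53.5 CPM. Prrx1, richer in cluster 22, was at 202 CPM in h8 with 11.1% of its cells in that cluster. That share was 1 cell, which held 22 of the 48 Prrx1 UMIs of h8. Weighting the Bmal1 WT clusters to the Empty vector mix, over all fibroblast-like cells, took the pooled log2 ratio from 0.12 to 0.19 for Zeb1, from 0.11 to 0.05 for Zeb2 and from -0.06 to -0.17 for Prrx1.

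Snai2 was the only factor whose fibroblast-like replicates did not overlap, with 44.6, 28.9 and 29.5 CPM in Empty vector versus 12.8, 12.8 and 26.6 CPM in Bmal1 WT. It rested on 38 UMIs, below the minimum for the test, and the share of all genes in this class with such a gap was not counted. All fibroblast-like cells together showed no such gap, at 37.5 CPM (29.98 to 46.3) and 35.4 CPM (29.7 to 41.8). Twist2 had the largest pooled difference in these cells, 51.4 CPM on 118 UMIs in Empty vector versus 33.3 CPM on 129 UMIs in Bmal1 WT, a log2 ratio of -0.63 (-0.998 to -0.254, counting error only). Its replicates, at 14.9, 28.9 and 67.5 CPM and 20.4, 51.0 and 20.7 CPM, overlapped. Snai1 was at 14.9, 0 and 25.3 CPM against 20.4, 25.5 and 11.8 CPM.

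Thinned shares in fibroblast-like cells separated no factor either. The smallest exact permutation p was 0.30, for Zeb2, at 41.0% ± 11.1 (SD, n = 3) and 23.4% ± 20.5 (n = 3). A direct test of whether the effect differed between fibroblast-like and melanoma-like cells, by an interaction term in edgeR over 2588 genes, gave adjusted p-values between 0.933 and 0.9997 for the 4 factors in it. The widest difference was that of Twist1, -0.71 on the log2 scale (SE 0.66).

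In the myeloid classes the replicates of the groups separated for Zeb2, a factor required for the identity of tissue macrophages. With 3 against 3 replicates the smallest p of an exact permutation test is 0.10, so such a gap alone is not a call. The share of all genes with such a gap was not counted. In macrophage- or monocyte-like cells Zeb2 was at 1050, 1019 and 948 CPM in h1, h7 and h8 and at 876, 743 and 767 CPM in h3, h5 and h9, and the highest value of Bmal1 WT was under the lowest of Empty vector. The means were 1006 ± 52.1 CPM (SD, n = 3) and 795 ± 70.8 CPM (n = 3). The log2 fold change was -0.34 (SE 0.12, interval -0.61 to -0.06, unadjusted p = 0.0218, edgeR adjusted p = 0.366), so Zeb2 was not called. It was the 1 of 7 factors tested in this class, where 0% of 7133 genes were called (0 genes, 832 at an unadjusted p under 0.05, 36 genes with DESeq2, Zeb2 not among them). Prrx1 also did not overlap in this class, at 0, 0 and 0.550 CPM against 1.92, 1.83 and 1.33 CPM, but on 8 UMIs in all, too few for the test.

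In dendritic-cell-like cells Zeb2 was at 150, 112 and 115 CPM in Empty vector versus 71.0, 86.9 and 54.8 CPM in Bmal1 WT, again without overlap. The log2 fold change was -0.82 (SE 0.19, interval -1.25 to -0.38, unadjusted p = 0.00203, edgeR adjusted p = 0.116). Neither of the 2 factors tested there, Zeb1 and Zeb2, was called, against 0.212% of 7552 genes (16 genes, 1188 at an unadjusted p under 0.05). With DESeq2 the adjusted p of Zeb2 was 0.0450, and with each cell given equal weight (limma) 0.0399, so the call depended on the method. Of all genes in this class DESeq2 called 126 and equal cell weight 80. Zeb1 in the same cells had a log2 fold change of -0.23 (SE 0.16, interval -0.59 to 0.14, edgeR adjusted p = 0.516).

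The make-up of the dendritic-cell-like class also differed between the libraries, and its part in the Zeb2 difference was not tested. Cluster 10, lowest in Zeb2, made up 10.9% of the class in Empty vector versus 29.7% in Bmal1 WT, while the Zeb2-rich clusters 20 and 14 made up 20.5% and 9.38% in Empty vector but 8.18% and 4.09% in Bmal1 WT. By replicate, cluster 10 took 13.8%, 4.04% and 9.02% of the class in h1, h7 and h8 and 29.1%, 24.3% and 40.4% in h3, h5 and h9. Weighting the Bmal1 WT clusters to the Empty vector mix of UMIs, not of cells, gave 121 CPM of Zeb2 against 129 CPM. That was a log2 ratio of -0.08 where the unweighted ratio was -0.82. This weighted ratio averages clusters that went both ways. Zeb2 was higher in Bmal1 WT in cluster 1 (log2 ratio 0.46, 0.08 to 0.84, counting error only) and lower in cluster 10 (-2.15, -4.30 to -0.31, on 9 and 4 UMIs), while the intervals for clusters 13 (-0.54), 14 (-0.26) and 20 (-0.15) included 0. In each of these 5 clusters the replicates overlapped, for cluster 20 at 331, 205 and 323 CPM against 152, 588 and 334 CPM, of which the last 2 came from 4 and 3 cells.

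The log2 ratio of Zeb2 in macrophage- or monocyte-like cells was -0.30 unweighted and -0.23 at the Empty vector mix, and the part of the mix was not tested. Cluster 9, led by Retnla and C1qa, made up 16.5% and 27.6% of this class. Within cluster 9, Zeb2 was at 775, 975 and 773 CPM in Empty vector versus 625, 506 and 401 CPM in Bmal1 WT, without overlap. Clusters 4 and 7 overlapped between the groups. This single cluster was picked after its values were seen and was not tested.

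**Figure D4:**
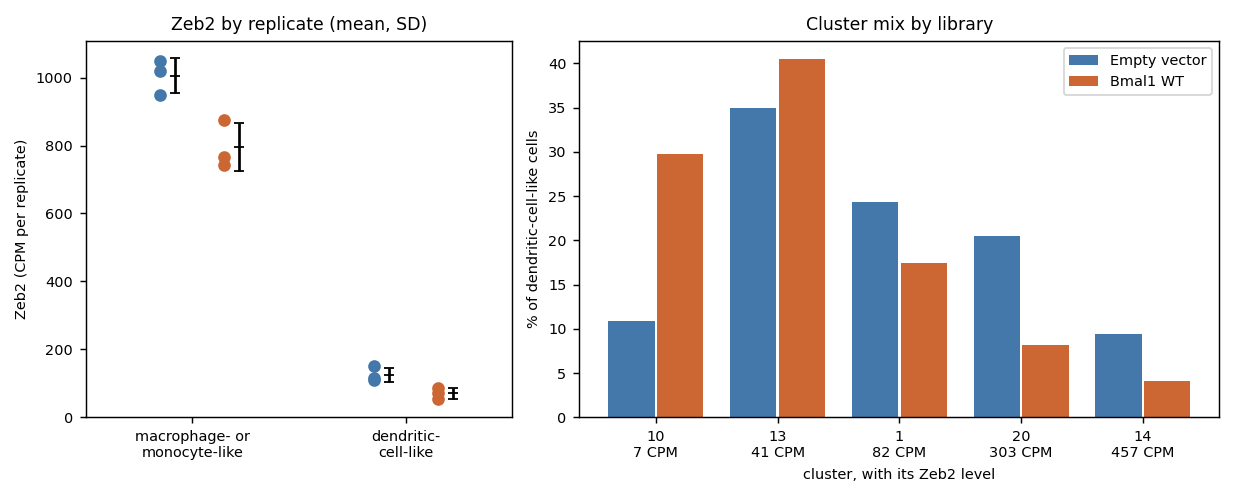
Left, Zeb2 level (CPM) per hashtag replicate in macrophage- or monocyte-like and dendritic-cell-like cells, with the mean and SD of 3 beside each group; the groups do not overlap in either class. Right, share of each cluster in the dendritic-cell-like class (bars, %), ordered by the Zeb2 level of the cluster written below it, with cluster 10 at 10.9% for Empty vector and 29.7% for Bmal1 WT.

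In lymphocytes neither Zeb factor was called by edgeR or DESeq2, and neither had an unadjusted p under 0.05. Zeb1 in T-cell-like cells was at 97.6 ± 11.6 CPM (SD, n = 3) in Empty vector versus 86.3 ± 24.8 CPM (n = 3) in Bmal1 WT, and Zeb2 in NK-cell-like cells at 191 ± 22.6 CPM and 151 ± 56.5 CPM. T-cell-like cells had log2 fold changes of -0.24 for Zeb1 (SE 0.20) and -0.25 for Zeb2 (SE 0.26), with edgeR adjusted p-values of 0.483 and 0.579, in a class where 5.23% of 8185 genes were called (428 genes). At the Empty vector cluster mix, the pooled log2 ratio of Zeb1 in T-cell-like cells was -0.10, where the unweighted ratio was -0.32. NK-cell-like cells had log2 fold changes of -0.35 for both Zeb1 (SE 0.19) and Zeb2 (SE 0.18), with edgeR adjusted p-values of 0.469 and 0.436, where 0.0574% of 6965 genes were called (4 genes). Zeb2 made up a mean of 63.4% ± 5.84 (SD, n = 3) of Zeb UMIs in dendritic-cell-like cells of Empty vector and 53.6% ± 2.10 (n = 3) of Bmal1 WT (exact permutation p = 0.10, adjusted p = 0.60 over 6 classes), and in the other classes the p was larger.

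Genes of the wider EMT program were read in melanoma-like cells from lists chosen with earlier results of these data known. By edgeR, 0 genes of any list were called. Of 17 epithelial genes that the factors are known to repress, including Cdh1, Epcam and Esrp1, only the keratin Krt18 reached 100 UMIs (7.005 CPM in Empty vector, 11.9 CPM in Bmal1 WT). Of 18 mesenchymal genes, 13 were tested, 10 were higher and 3 lower in Bmal1 WT, with a median log2 fold change of 0.37 against -0.01 for all genes, and 4 had an unadjusted p under 0.05. Over all 8787 genes 49.1% were higher in Bmal1 WT and 339 had such a p. The matrix protein gene Tnc had the lowest value, with a log2 fold change of -1.62. Col1a1 had the highest at 4.46 (SE 1.69), from 1.01 ± 1.34 to 31.4 ± 51.0 CPM, and it is also a fibroblast marker. In the hashtagged melanoma-like cells that entered the test, fibroblast markers summed to 218, 64.8 and 358 CPM in h1, h7 and h8 and to 315, 570 and 254 CPM in h3, h5 and h9, and their part in the values of the mesenchymal genes was not tested.

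Of 12 relatives and dimer partners 7 were tested, 5 higher and 2 lower in Bmal1 WT, with a median log2 fold change of 0.18. Among them 1 had an unadjusted p under 0.05, the dimerization inhibitor Id2 with a log2 fold change of 0.98, and Id4 was lowest at -0.86. Of 14 co-repressors and chromatin partners 13 were tested, with fold changes from -0.20 for Ctbp1 to 0.40 for the histone methyltransferase Ezh2 and a median of -0.05. All 7 genes of Snail and Twist protein turnover were tested, with a median of -0.17, as were 15 upstream signals, with a median of -0.01 and a range from -0.74 for the Notch ligand Jag1 to 0.47 for the AP-1 factor Fosl1. In fibroblast-like cells 15 of 18 mesenchymal genes were tested, 7 higher and 8 lower, and 0 were called.

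Across the 14 points formed by named classes and libraries, the level of each factor was compared with that of 12725 other genes (Pearson's r of log2(CPM + 5), a description without a p, since classes share libraries and depth). Closest to Twist1 were Npdc1 (r = 0.998), Rhobtb3 and Tcim, to Prrx1 Cpeb1 (r = 0.997), Rbms3 and Dpysl3, and to Snai2 Etv4 (r = 0.994), Mgp and Mpdz. Twist1, Prrx1 and Snai2 were also close to each other, with r between 0.97 and 0.99. Snai1 and Twist2 formed a second pair (r = 0.93), nearest to Ccdc80 (r = 0.989), Cd34 and Abca6 and to Rarres2 (r = 0.995), Mtcl1 and Hhipl1. Zeb1 was nearest to Pias3 (r = 0.968), Zfp688 and Dock9, and Zeb2 to Ptp4a1 (r = 0.961), Rnf149 and Abca1. Zeb1 and Zeb2 had r = -0.66 with each other.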

How the data were processed

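The authors deposited raw UMI counts per gene and barcode from Cell Ranger 6.1.2 (mm10 per the labels). For annotation and strand settings no source used here gave a value. What was deposited as Bmal1 bHLH (3 of 3 parts) matched the Bmal1 WT parts exactly and was left aside. Gene positions are from GENCODE M21 (GRCm38).

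Cells had at least 200 genes and at most 20% mitochondrial UMIs. Hashtags were assigned by a Gaussian mixture of 2 components (scikit-learn 1.9.0). Both libraries were clustered together without the 7 factors (scanpy 1.11.5, Python 3.11.15; 2000 variable genes, 30 components, 15 neighbors, igraph 0.11.9 at resolution 1), giving 26 clusters, of which 25 were named from at least 3 markers over 2-fold above the mean of the other clusters. A cell then needed 2 markers of its class, and pan-immune UMIs above 5 per 10000 for immune classes or no more than that for the others. Mitochondria-poor melanoma-like barcodes (37 and 124) were kept apart. Scrublet called 1 of 3978 and 4 of 2386 cells and so did not work. Doublets were kept, but cells with several hashtags entered no replicate.

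UMIs were summed per hashtag. Genes with at least 100 UMIs entered the quasi-likelihood test of edgeR 4.0.16 in R 4.3.3, with total UMIs as library size and Benjamini-Hochberg adjustment. DESeq2 1.42.0 and limma 3.58.1 (on log2(CPM + 5)) were alternatives, and the step was tested on simulated data. Thinned shares were compared by a two-sided exact permutation test. Intervals cover counting error at 95%.

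The members and lists were chosen with earlier results of these data known. Named were the 7 factors, the 3 genes most like each, and from each list the 2 highest and 2 lowest fold changes, of which the extremes are printed, except for an item that is not reported here. The cluster reference for naming, the cell gate, the mitochondria-poor class, the cluster weighting, the Zeb2 share and the Sox10 split were set after the data had been seen.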

Additional observations from a re-analysis of the deposited data

How the results depend on the processing

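Of 273 fold changes of the factors under other settings, 250 kept their direction, 23 changed sign, and 3 passed the threshold, all for Zeb2 in dendritic-cell-like cells (adjusted p 0.00652 without a gene filter, 0.0450 with DESeq2, 0.0399 with equal cell weight, and up to 0.253 without h8). The fits of single clusters and with mitochondria-poor barcodes were added after the data had been seen. None of the sign changes was of a fold change past the threshold, and their cause was not tested. In melanoma-like cells, log2 fold changes of the opposite sign were -0.105 (Zeb1), -0.141 (Twist1) and 0.138 (Prrx1) in cluster 15 alone, -0.0462 (Zeb1), -0.289 (Zeb2) and 0.00921 (Prrx1) with the cell gate alone, -0.0382 (Zeb2) with hashtags by centered log count and -0.0148 (Zeb2) with mitochondria-poor barcodes added. With 1 replicate left out they ran from -0.0295 to 0.317 for Zeb1, from -0.174 to 0.370 for Zeb2 and from -0.579 to 0.0545 for Prrx1, turning without h7 and, for Zeb2, also without h5 (-0.0177). Twist1 (0.49) ran from 0.34 without h5 to 0.79 without h8. Equal cell weight gave 1.41 for Twist1, 1.23 for Zeb1 and 0.69 for Zeb2, none past the threshold. In fibroblast-like cells they were -0.409 (Zeb1) and -0.0455 (Zeb2) with the cell gate alone, -0.0373 (Zeb2) in cluster 11, -0.466 (Prrx1) in cluster 22, and -0.557 (Zeb2) and -0.311 (Prrx1) with equal cell weight. With 1 replicate left out they ran from -0.0975 (without h3) to 0.325 for Zeb2, also turning without h7 (-0.0201), and from -0.510 to 0.0486 for Twist1 and -0.0872 to 0.680 for Prrx1, turning without h7. In T-cell-like cells Zeb1 ran from -0.399 to 0.0155, turning without h3.

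Counts of all genes called moved as follows. In melanoma-like cells (0), 41 were called without a gene filter, 5 with DESeq2 and 0 to 1 with 1 replicate left out. In fibroblast-like cells (0), 151 without a filter, 9 with DESeq2, 16 with the cell gate alone, 3 in cluster 22, 1 with equal cell weight and 0 to 1 with 1 replicate left out. In macrophage- or monocyte-like cells (0), 97 without a filter and 36 with DESeq2. In dendritic-cell-like cells (16), 28 with centered hashtags, 40 with clusters alone, 64 with TMM, 315 without a filter, 126 with DESeq2, 80 with equal cell weight, 35 with the stricter cell filter, and 0 with the cell gate alone, with the 30 UMI filter, without the highest Scrublet scores, or with any 1 replicate left out (0 to 0). In T-cell-like cells (428), 1018 without a filter, 220 with equal cell weight, 0 with the cell gate alone and 0 to 421 with 1 replicate left out. In NK-cell-like cells (4), 30 with centered hashtags, 78 without a filter, 92 with DESeq2, 29 with equal cell weight, 0 with the cell gate alone and 1 to 85 with 1 replicate left out.

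No paired analysis was possible because the groups compared share no hashtag number. Low cell numbers (3 melanoma-like cells in h7, 7 to 20 fibroblast-like cells per hashtag) limit these comparisons.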
